A study of Mus musculus with 4 samples.

Results

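The cells described here were chosen by their own RNA as cells of the neutrophil lineage and its precursors. A barcode was a member when it held at least 200 genes, when Ngp, Camp, Ltf, Elane, Mpo and Prtn3 together gave at least 10 UMIs and at least 0.5% of its UMIs, and when the hemoglobin transcripts Hbb-bs, Hbb-bt, Hba-a1 and Hba-a2 gave under 5%. This rule found 73 members among 13889 barcodes, of which 10 were cells and 63 were nuclei. The libraries came from the stria vascularis (SV) of inbred CBA/J mice at postnatal day 30, for which the labels name no mutation and no treatment, and comprised 3 captures of whole cells (scRNA-Seq) and 1 capture of nuclei (snRNA-Seq). Each capture was 1 suspension pooled from several mice, about 12 for cells and about 10 for nuclei by the labels, numbers on which the study's methods differ, so that the capture and not the mouse is the replicate. The summed depth was 2811309 UMIs for cell capture 1, 8113494 for capture 2, 8340882 for capture 3 and 22332501 for the nuclei.

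Neutrophils form in bone marrow from myeloid progenitors, and their granules are filled in a fixed order. Primary (azurophil) granules receive the serine proteases neutrophil elastase (Elane) and proteinase 3 (Prtn3) and myeloperoxidase (Mpo), all made at the promyelocyte stage, when precursors of monocytes make them as well. Secondary (specific) granules receive lactoferrin (Ltf), the cathelicidin precursor (Camp) and neutrophilic granule protein (Ngp) at the myelocyte and metamyelocyte stages, and tertiary (gelatinase) granules are filled last, so the granule transcripts a cell holds mark its stage.

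The rule rests on 6 genes whose promoters sit in a few places of the genome. Prtn3 and Elane lie on chromosome 10 with the starts of their windows 6.645 kb apart, and Camp, Ngp and Ltf lie on chromosome 9 within 1.17 Mb. Of the windows from 250 bases before to 50 bases after the gene start (RefSeq, GRCm38.p6), 4 are shown, a pair of primary and a pair of secondary granule genes that hold at least one of the motifs searched, chosen after the matches were known. They are Elane at chr10:79886062-79886361 on the plus strand, Mpo at chr11:87793534-87793833 on the plus strand, Ngp at chr9:110419558-110419857 on the plus strand and Ltf at chr9:111019042-111019341 on the plus strand. Capitals mark matches, on either strand, to GAGGAA, letters bound by PU.1, or to TTNCNNAA, letters bound by C/EBP factors.
Elane: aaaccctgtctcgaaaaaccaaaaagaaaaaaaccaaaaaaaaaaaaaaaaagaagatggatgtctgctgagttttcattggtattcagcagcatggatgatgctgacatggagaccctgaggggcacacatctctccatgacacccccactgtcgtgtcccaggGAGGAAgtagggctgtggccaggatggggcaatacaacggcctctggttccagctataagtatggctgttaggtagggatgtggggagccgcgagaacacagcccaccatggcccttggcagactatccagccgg
Mpo: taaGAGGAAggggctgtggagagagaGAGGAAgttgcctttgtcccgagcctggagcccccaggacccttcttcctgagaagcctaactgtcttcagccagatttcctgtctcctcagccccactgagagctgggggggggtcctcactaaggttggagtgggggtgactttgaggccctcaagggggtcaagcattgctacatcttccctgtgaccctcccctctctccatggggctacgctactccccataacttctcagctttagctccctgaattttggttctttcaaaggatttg
Ngp: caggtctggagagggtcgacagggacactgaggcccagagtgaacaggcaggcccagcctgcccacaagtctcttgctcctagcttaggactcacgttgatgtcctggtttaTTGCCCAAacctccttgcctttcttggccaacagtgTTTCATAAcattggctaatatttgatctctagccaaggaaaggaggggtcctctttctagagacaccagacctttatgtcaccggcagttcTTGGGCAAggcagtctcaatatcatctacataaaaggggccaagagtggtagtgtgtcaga
Ltf: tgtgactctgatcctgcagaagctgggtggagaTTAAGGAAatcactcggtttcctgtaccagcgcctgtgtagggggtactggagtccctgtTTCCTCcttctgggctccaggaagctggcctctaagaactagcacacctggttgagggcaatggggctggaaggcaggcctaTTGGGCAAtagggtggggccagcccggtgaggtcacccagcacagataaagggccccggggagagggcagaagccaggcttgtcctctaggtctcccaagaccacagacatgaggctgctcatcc
GAGGAA was found once in the Elane window, starting 85 bases before the gene start, once in that of Prtn3 and 2 times in that of Mpo, and none of these windows held TTNCNNAA. The Ngp window held TTNCNNAA 3 times and no GAGGAA, the Ltf window held TTNCNNAA 2 times and GAGGAA once, and the Camp window held neither. The windows of Lcn2 and S100a8, which belong to the later stages described below, held both. Of all 32851 promoter windows, 40.7% held TTNCNNAA and 28.3% held GAGGAA, so that such letters are common, and a match is no evidence of binding.

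Members were found in 3 of the 4 libraries. Cell capture 1 had 0 of 378 barcodes, for which 3 counts, the floor used here for a count of 0, would be 0.794%, cell capture 2 had 1 of 1329 (0.0752%), and cell capture 3 had 9 of 1481 (0.608%, exact binomial 95% interval 0.278 to 1.15). The nucleus capture had 63 of 10701, or 0.589% (0.453 to 0.753). The share in the nuclei thus lay within the interval of cell capture 3, while cell captures 1 and 2 together gave a single member. Barcodes with at least 5% hemoglobin numbered 0, 14, 93 and 647 in the same order of libraries, so that the members were found where erythroid barcodes were also most frequent. Whether both came with the same tissue or fluid was not tested. No member barcode was shared with a member of another library, and 73 barcodes were shared between libraries in all, 1 of them a member of one library.

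The choice of members set their granule counts, and those counts are given as a description. The members fell into a pair of separate classes by the share of the 6 genes' UMIs that came from Elane, Mpo and Prtn3. In 9 members these primary granule genes gave at least 94.9%, and in the other 64 they gave at most 9.70%, with no member between 25% and 75%. The first are called primary-leading (2 cells of capture 3 and 7 nuclei) and the second secondary-leading (1 cell of capture 2, 7 cells of capture 3 and 56 nuclei). Primary-leading members made up 12.3% (5.80 to 22.1). Of the 64 secondary-leading members, 59 had 0 UMIs of any primary granule gene, and all 9 primary-leading members had 0 UMIs of Ngp and of Ltf, with 0 to 4 of Camp. A single nucleus held both kinds in number, with 48 UMIs of Elane, 6 of Mpo and 15 of Prtn3 beside 270 of Ngp, 369 of Camp and 3 of Ltf. The secondary-leading member next to it had 0.573% primary granule UMIs.

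**Figure D1:**
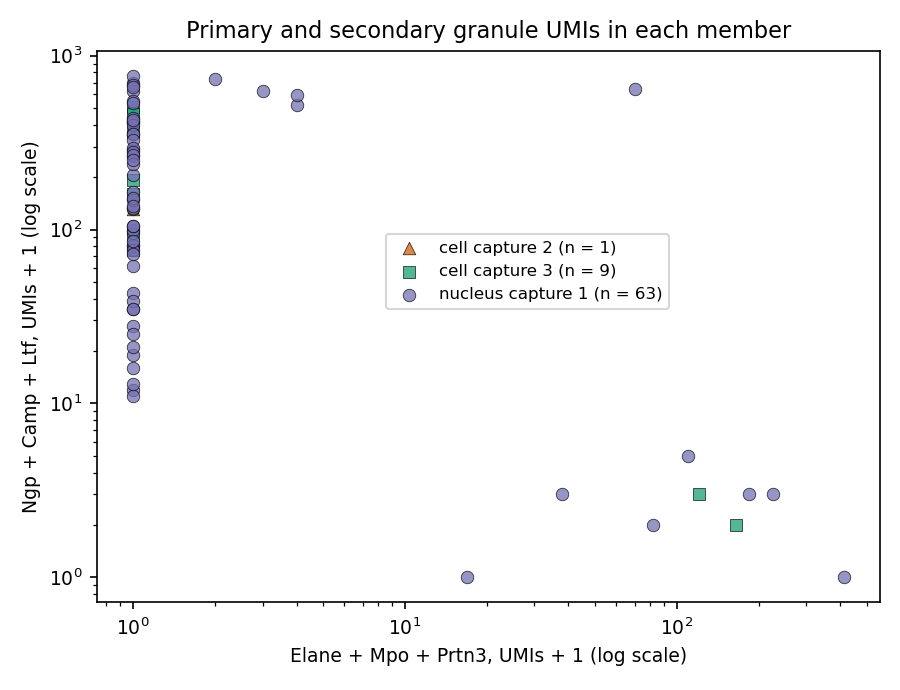
Each point is 1 of the 73 members, with the summed UMIs of Elane, Mpo and Prtn3 plus 1 on the horizontal log axis and those of Ngp, Camp and Ltf plus 1 on the vertical log axis, and colors for the 3 libraries with members. The 64 secondary-leading members lie along the left, 59 of them at 0 primary granule UMIs, the 9 primary-leading members lie at the lower right, and 1 nucleus with 69 primary and 642 secondary granule UMIs stands between them.

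Few barcodes lay just outside the limits, but some members lay close to them. A limit of 1% of UMIs gave 65 members. It left out both primary-leading cells (0.784% and 0.689%) and the deepest primary-leading nucleus (0.991%). In cell capture 3 the lowest member had 0.689% of its UMIs in the 6 genes, and the nearest barcode outside had 0.195% with 30 UMIs. Among nuclei the lowest member by percent had 0.559% with 15 UMIs, 1 nucleus just outside had 9 UMIs at 0.607% and another had 14 UMIs at 0.325%. The limit on hemoglobin removed 1 cell with 35.4% hemoglobin and 3 nuclei with 18.0%, 22.9% and 68.4%. Members were well covered, with a median of 4261 UMIs in cell capture 3 and 2638 in the nuclei, against 3880.5 and 1543 in other barcodes. Their mitochondrial share was low, with a median of 3.58% against 45.5% in the other barcodes of cell capture 3 and 1.15% against 8.69% in the nuclei.

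The primary-leading members held most of the listed primary granule transcripts. Levels are given as CPM, the UMIs of a gene in every 1000000 UMIs summed over a class, with an exact Poisson interval that covers counting error only. UMIs were read at transcript ends and are not scaled by length. In the 7 nuclei Elane stood at 17460 CPM (16103 to 18901), Mpo at 6658 and Prtn3 at 6315 (5510 to 7205). In the 2 cells they stood at 2890, 2064 and 2374 CPM. The 7 nuclei were uneven, with 5 to 234 UMIs of Elane, 2 to 101 of Mpo and 6 to 77 of Prtn3 in each. Those genes were set by the rule, but cathepsin G (Ctsg), another primary granule protease, was not, and it was found in all 9 members, with 17 and 19 UMIs in the cells and from 1 to 70 in the nuclei. Of the promyelocyte list, which leaves out the rule genes, 10 of 10 were detected in the primary-leading nuclei and 7 of 10 in the cells, where Prss57, Fcnb and Serpinb1a had 0 UMIs. Plac8, a small cysteine-rich protein of early myeloid cells, had 4386 CPM in the cells and 3429 in the nuclei. Ms4a3, a membrane protein of granulocyte and monocyte progenitors, had 387 and 1772 CPM, and the granule protein Nkg7 had 181 and 1543 CPM. By nucleus Ms4a3 ran from 0 to 23 UMIs.

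These 9 members were not alike in the genes that part neutrophil from monocyte precursors. Gfi1, a repressor required for the neutrophil fate, had 2, 2 and 3 UMIs in nuclei 3, 4 and 5, numbered by falling depth, and 0 in the other 6 members. Fcnb, a ficolin of neutrophil precursors, had 12 UMIs in nucleus 3, 16 in nucleus 4, 1 in nuclei 1 and 5, 3 in nucleus 6, and 0 in the rest. The chemokine receptor Ccr2, which marks monocytes, had 8 and 15 UMIs in the 2 cells, 2 and 4 in nuclei 1 and 2, and 0 in the other 5 nuclei. F13a1, a coagulation factor subunit of monocytes, had 12 and 3 UMIs in the cells, 4 in nucleus 1 and 2 in nucleus 7, and Ms4a6c, a membrane protein of monocytes, was found in the same 4 members. Thus no member held UMIs of both Gfi1 and any of Ccr2, F13a1 and Ms4a6c, 5 of the 9 members held one or more of the last 3 genes, and 3 held Gfi1. Irf8, a factor required for the monocyte fate, had 11 and 2 UMIs in the 2 cells, but it was listed at 0 in all 11057 barcodes of the nucleus capture, so it cannot be read in nuclei. Csf1r, another gene of the monocyte list, had 1 UMI in 1 of the 2 cells and 0 in the nuclei. F13a1 was called lower in members than in the macrophage barcodes described below, so it is not confined to monocytes. With counts this low a 0 does not show absence, and nuclei 2 and 7 held the monocyte transcripts at only 4 or 2 UMIs a gene. The label of neutrophil lineage therefore was not settled for the 5 primary-leading members with these transcripts. Nor does a 0 of these transcripts settle it for the others. The 9 are called here by their leading genes.

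**Figure D2:**
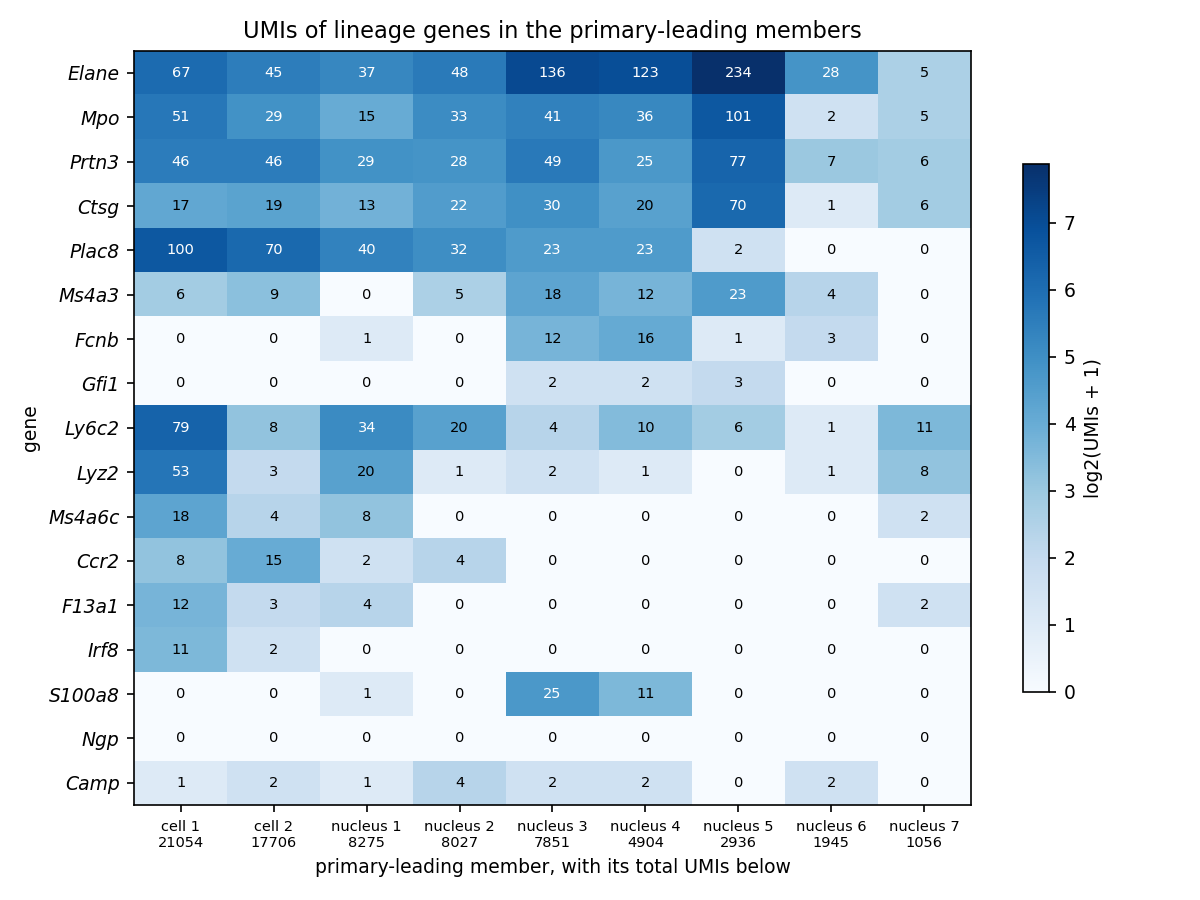
UMI counts of 17 genes (rows, printed in each cell and colored as log2 of UMIs plus 1) in the 9 primary-leading members (columns, with total UMIs), 2 cells of capture 3 and 7 nuclei. Gfi1 had UMIs in nuclei 3, 4 and 5 only, and Ccr2, F13a1 or Ms4a6c in both cells and in nuclei 1, 2 and 7.

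Genes of earlier progenitors were low in the primary-leading members. The progenitor antigen Cd34 had 1 and 5 UMIs in the 2 cells and 0 in the nuclei, and the progenitor list as a whole had 12 UMIs in the cells (4 of 8 genes) and 7 in the nuclei (3 of 8 genes). Cebpa, which drives entry into the granulocyte and monocyte path, had 77.4 CPM in the cells and 143 in the nuclei, and 0 UMIs in the secondary-leading members of both libraries. Myb, a factor of proliferating progenitors, had 129 and 257 CPM against 35.8 and 34.2 in the secondary-leading members. These members were deep, with 21054 and 17706 UMIs in the cells and a median of 4904 in the nuclei, against medians of 3503 and 2510 in the secondary-leading members.

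The secondary-leading members were dominated by calprotectin, the calcium-binding S100a8 and S100a9 pair of the neutrophil cytosol. S100a8 reached 214452 CPM (209053 to 219955) in the 7 cells of capture 3 and 175472 CPM (173518 to 177442) in the 56 nuclei, and S100a9 reached 141225 and 94064 CPM. Both genes together made up 27.0% to 42.2% of the UMIs of each cell of capture 3 and 42.2% of those of the cell of capture 2. In the nuclei the lowest share was 0.509%, the median 29.0% and the highest 41.6%. In the primary-leading members S100a8 had 25 UMIs in nucleus 3 and 11 in nucleus 4, both of which also held Gfi1, 1 in nucleus 1, and 0 in the other 6 members. The calprotectin share was at most 0.357% in a primary-leading member, so the classes did not overlap, although the lowest secondary-leading nucleus came close.

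Secondary granule transcripts other than those of the rule were present in nearly all secondary-leading members. Lipocalin 2 (Lcn2), which binds bacterial siderophores, had 23 to 64 UMIs in each of the 7 cells of capture 3, 30 UMIs in the cell of capture 2, and a lowest of 1, a median of 17.5 and a highest of 75 in the nuclei. Its level was 9315 CPM in cells and 7348 in nuclei, with 0 UMIs in all 9 primary-leading members. Wfdc21, a gene of the whey acidic protein family, stood at 9816 and 6391 CPM and the peptidoglycan recognition protein Pglyrp1 at 3332 and 3828 CPM. Lysozyme (Lyz2), which is shared with monocytes and macrophages, reached 10998 CPM in cells and 17464 in nuclei. Cebpe, the C/EBP factor that switches on secondary granule genes, was found in 4 of the 7 cells and 37 of the 56 nuclei, at 537 (301 to 886) and 666 (551 to 799) CPM. Ly6g, the surface antigen used to mark mouse neutrophils, was found in 6 of 7 cells and 54 of 56 nuclei, at 1326 and 1885 CPM.

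In the nucleus capture, the only library with at least 3 members of each class, the classes were first set side by side with no test. Among 1186 genes with at least 20 UMIs, leaving out the 6 rule genes and hemoglobin, 193 (16.3%) were at least 4-fold higher in primary-leading nuclei and 102 (8.6%) at least 4-fold higher in secondary-leading nuclei. Mitochondrial UMIs differed with the class, at a median of 2.52% against 1.08%, and 3 of 7 primary-leading and 6 of 56 secondary-leading nuclei had over 10%. Without those nuclei, a choice made after seeing the data, the counts were 201 and 91 of 1062 genes. Of the promyelocyte list 4 of 7 genes with enough UMIs were past 4-fold towards the primary-leading nuclei and none the other way. Of the secondary granule list 8 of 10 were past it towards the secondary-leading nuclei, as were 4 of 4 of the tertiary granule list and 4 of 5 of the mature neutrophil list. The median log2 ratio of primary-leading over secondary-leading was 2.98 for the promyelocyte list, -3.90 for the secondary granule list, -5.10 for the tertiary granule list, -6.05 for the mature neutrophil list and 0.33 over all genes. Cell capture 3 had 338 genes with enough UMIs, of which 124 (36.69%) were at least 4-fold higher in its 2 primary-leading and 33 (9.76%) in its 7 secondary-leading cells. Both primary-leading cells and some primary-leading nuclei held the monocyte transcripts given above, whose part in these counts was not tested.

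A fit of both libraries with the library as a block, added after the values had been seen, left 1 residual degree of freedom. Of 402 genes outside the rule, edgeR's quasi-likelihood test called 135 (33.6%) higher and 112 (27.9%) lower in primary-leading members, and since the classes were formed on RNA of the same barcodes these calls are a description. Ribosomal protein genes made up 76 of the 135 higher calls, of 82 tested, with log2 fold changes from 1.08 to 4.01 and a median of 2.06, and the translation factors Eef1a1, Eef1b2, Eef1g and Eef2 were also called higher. All 9 tested secondary granule genes, 3 of 3 tertiary granule genes, 4 of 4 mature neutrophil genes and 4 of 4 oxidase genes were called lower, as was Cebpe. Of the promyelocyte list Ctsg, Ms4a3 and Plac8 of 6 tested genes were called higher and none lower, and of the monocyte list Ms4a6c of 2 tested genes. No primary-leading cell in the fit was free of Ccr2, F13a1 and Ms4a6c, and some primary-leading nuclei held them too. The calls thus mix granule stage with monocyte transcripts, and the part of each was not tested. The one tested gene each of intermediate cells, Dct, and of marginal cells, Slc12a2, was called lower in primary-leading members, with log2 fold changes of -1.93 (adjusted p = 0.00068) and -2.06 (adjusted p = 0.0042) by edgeR's quasi-likelihood test, and the part of this SV-cell RNA in the result was not tested. Without TMM scaling the split was 174 higher and 32 lower, and the median log2 fold change over all genes went from 0.01 to 1.28. Without the library block 0 genes were called either way, with 120 at an unadjusted p under 0.05.

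Outside the lists, the genes that leaned most to the primary-leading nuclei were Ccl9, Lgals1, Srgn, Pdcd4, Ramp1, Gstm1, Ifngr1, Zeb2, Dock10 and Eef1g. Both primary-leading cells held monocyte transcripts, whose part in these ratios was not tested. The chemokine Ccl9 had 20 UMIs against 0, at least 33.4-fold higher, and 18 against 0 in the cells. Galectin 1 (Lgals1) was 79.0-fold higher in nuclei, and in cells 37.8-fold (10.2 to 316) on 105 UMIs against 2, and serglycin (Srgn), the proteoglycan that packs granule proteases, was 35.1-fold higher in nuclei. Among those that leaned most to the secondary-leading nuclei were Adpgk, S100a6, Plbd1, Cpne3, Mcemp1, Ltb, Ptprc, Cotl1 and Chil1. S100a6, a calcium-binding protein, had 207 UMIs in the secondary-leading and 2 in the primary-leading nuclei, a ratio of 20.6 (exact interval 5.64 to 171). The chitinase-like Chil1 had 92 UMIs against 1, a ratio of 18.3 (3.21 to 732), and Mcemp1, a membrane protein of myeloid cells, had 96 against 1, a ratio of 19.1 (3.35 to 764). In the cells the counts leaned the same way, with 12 UMIs against 2 for S100a6, 7 against 1 for Chil1 and 10 against 1 for Mcemp1.

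**Figure D3:**
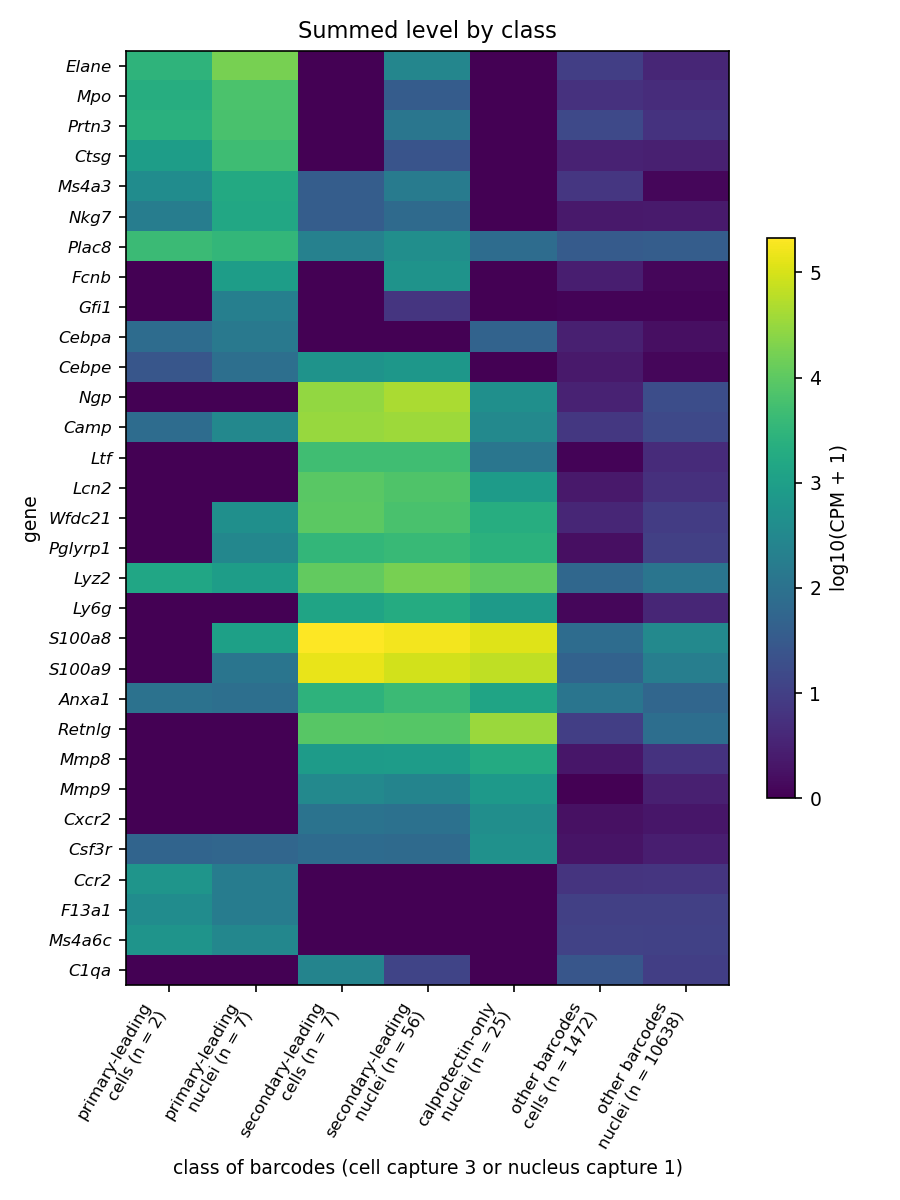
Level of 31 genes (rows) as log10 of CPM plus 1, summed over the barcodes of each class (columns, with the number of barcodes) in cell capture 3 or the nucleus capture. Primary granule genes are bright in the 2 primary-leading columns, Ngp to S100a9 in the secondary-leading columns, and Retnlg in the calprotectin-only nuclei, which hold S100a8 and S100a9 but fall outside the rule, at 34484 CPM.

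The secondary-leading members themselves varied along a range that the rule did not use, marked by Retnlg, a resistin-like protein of later neutrophils. The groups were formed after the values had been seen and are a description. Of 56 nuclei, 25 had 0 or 1 UMI of Retnlg, 5 had 2 to 9 and 26 had at least 10, with a highest of 125. From the first to the last group, Cebpe went from 907 (731 to 1112) to 205 (106 to 359) CPM and the early gene Fcnb from 887 CPM to 0 UMIs. Chil3, a chitinase-like protein of myelocytes, went from 2071 to 205 CPM, and Lcn2 from 7799 to 5906 CPM. The rule genes Ngp and Camp went from 56004 to 19483 CPM and from 44054 to 16675 CPM, levels that the rule itself bounds from below, so these are given only as values. Neutrophil collagenase (Mmp8), counted in the tertiary granule list here, ran the other way, from 69.0 (27.7 to 142) to 2277 (1906 to 2698) CPM. It was found in 4 of 25 and 26 of 26 nuclei. In the middle group of 5 nuclei Mmp8 had 1017 CPM, and Cebpe, Fcnb and Chil3 had 827, 254 and 1526, all between the first and last groups. Lcn2, Ngp, Camp and S100a8 stood at 9791, 59321, 46541 and 196910 CPM there, above both of those groups. Ly6g had 1272, 3306 and 2568 CPM from the first to the last group. S100a8 went from 178758 to 163993 CPM.

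Cell-cycle transcripts were found mainly in the nuclei without Retnlg. A member counted as holding cell-cycle RNA when at least 2 of 20 listed genes, such as Mki67, Top2a and Birc5, had a UMI. This was so in 12 of the 25 nuclei with 0 or 1 Retnlg UMI, in 1 of 5 with 2 to 9 and in 0 of 26 with at least 10. The nuclei of the first group were deeper, with a median of 4044 UMIs against 2052, and after every nucleus was thinned to 1000 UMIs the counts were 10, 1 and 0. The 7 cells of capture 3 fell the same way. The 2 cells with 0 Retnlg UMIs had UMIs of 10 cell-cycle genes each, and the 5 with 17, 22, 47, 55 and 100 Retnlg UMIs had 1 each. Those 2 cells were also the deepest of the 7, at 7042 and 4676 UMIs, and the only ones of the 7 with complement C1q UMIs (13 and 6), a macrophage product, whose part in the result was not tested. Hmgb2, a chromatin protein, was the list gene most often found in late nuclei, in 26 of 26.

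**Figure D4:**
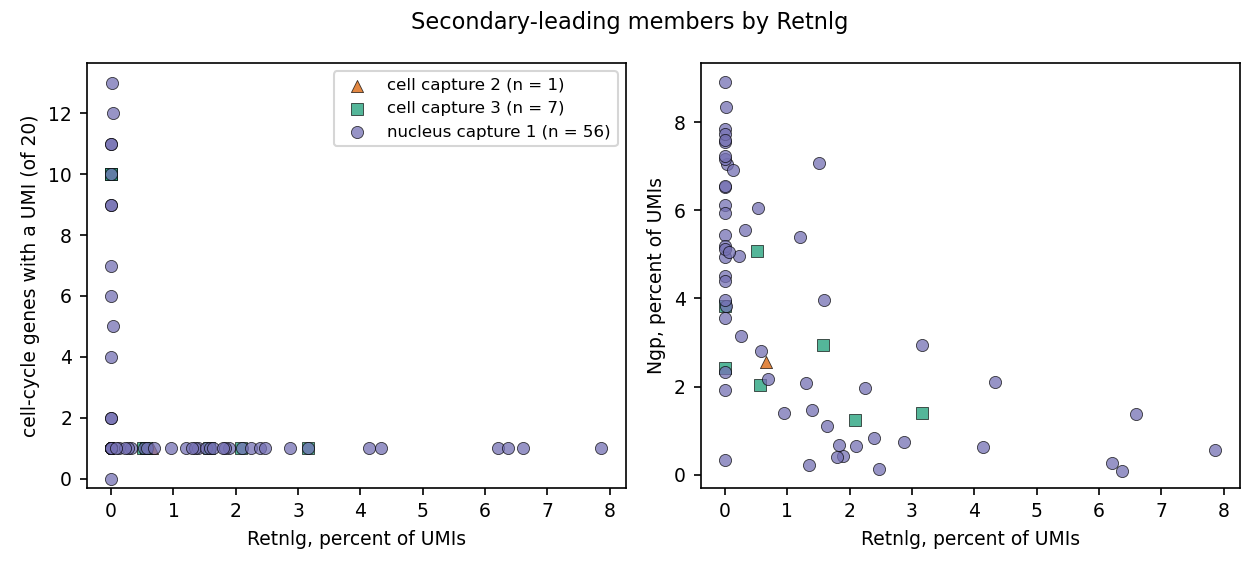
The 64 secondary-leading members by Retnlg as a percent of their UMIs (horizontal axis), with the number of 20 cell-cycle genes that had a UMI at the left and Ngp as a percent of UMIs at the right, and colors for libraries. No nucleus with at least 10 Retnlg UMIs had more than 1 cell-cycle gene, and members high in Ngp lie at low Retnlg.

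Among primary-leading members cell-cycle RNA was frequent. It was present in both cells, with 17 and 12 of the 20 genes, and in 6 of 7 nuclei (85.7%, interval 42.1 to 99.6), against 13 of 56 secondary-leading nuclei (23.2%) and 3.13% of other nuclei. At 1000 UMIs a nucleus the values were 57.1%, 21.4% and 2.01%, with 254 shallower nuclei among the others left out. The replication genes Mcm7 and Pcna each had 171 CPM in primary-leading nuclei against 22.8 and 51.3 in secondary-leading nuclei. The mitotic genes Ube2c and Birc5 had 0 and 57.2 CPM in the former and 216 and 165 in the latter. With at most 6 UMIs for each of these genes in the primary-leading nuclei, the difference between the classes in the kind of cell-cycle gene was not tested. By level the list leaned the other way, with 0 of 5 measured genes at least 4-fold higher in primary-leading nuclei, 1 at least 4-fold higher in secondary-leading nuclei, and a median log2 ratio of -0.995 against 0.33 over all genes.

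Some barcodes outside the rule had the calprotectin but few of the 6 granule transcripts. Barcodes with at least 10 UMIs and 0.5% of S100a8 and S100a9 that were not members numbered 1 in cell capture 3 and 25 in the nuclei, a set defined after values had been seen. In these nuclei Retnlg reached 34484 CPM (32692 to 36347) against 8231 in secondary-leading nuclei (12516 as a mean over members), and was found in 24 of 25. Mmp8 had 1790 against 889 CPM, gelatinase B (Mmp9) 721 against 256, the chemokine receptor Cxcr2, which mature neutrophils use to leave marrow, 423 against 96.8, and the receptor for granulocyte colony-stimulating factor (Csf3r) 497 against 68.4. Ngp stood at 448 CPM, a low value that the set's definition fixes, while Lcn2, which it did not use, stood at 845 against 7348 CPM, and Cebpe had 0 UMIs, where 3 UMIs would be 74.6 CPM. The single cell had 33293 CPM of Retnlg. These values are sums over the set, and 1 of the 25 nuclei had 0 Retnlg UMIs. The 26 secondary-leading nuclei with at least 10 Retnlg UMIs had 2277 CPM of Mmp8, more than the calprotectin-only nuclei. They had 223 (119 to 381) CPM of Cxcr2, 5906 of Lcn2 and 205 of Cebpe. Their Retnlg, at 24259 CPM, is set by that choice. The Dct of the calprotectin-only nuclei, the melanin enzyme of intermediate cells, stood at 3108 CPM against 963 in secondary-leading nuclei. The median depth of the calprotectin-only nuclei was 1425 UMIs. The part of this SV-cell RNA in the result was not tested.

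Genes of neutrophil function were present beside the granule genes. The NADPH oxidase makes superoxide, and all 6 of its listed genes were detected in the secondary-leading nuclei, at 5764 CPM summed, against 2200 CPM in primary-leading nuclei. The subunits Cyba, Cybb and Rac2 had 1914, 934 and 1646 CPM in the nuclei and 1290, 1111 and 1576 CPM in the cells. The marrow retention receptor Cxcr4 had 358 (172 to 659) CPM in the cells and 114 (69.6 to 176) CPM in the nuclei, in 4 of 7 and 16 of 56 members. Of its 10 UMIs in the cells, 7 came from 1 cell of 7042 UMIs that also held 13 UMIs of C1qa, C1qb and C1qc, and without that cell the level was 144 (29.6 to 420) CPM. Its counterpart Cxcr2 had 107 and 96.8 CPM. The ligand Cxcl12 and the cytokine Csf3 had 0 UMIs in the members of both libraries.

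Against the other barcodes of the same library, the members were far higher in these same genes. The comparison used sums per library for cell capture 3 and the nuclei, and since members were chosen on RNA of the same barcodes its calls describe the class and support nothing beyond it. Of 11587 genes outside the rule, 526 (4.54%) were called higher and 136 (1.17%) lower in members by edgeR's quasi-likelihood test at an adjusted p of 0.05. Without TMM scaling the split was 752 higher and 558 lower, and with DESeq2 size factors 560 and 472. All 9 tested genes of the secondary granule list, 11 of 11 of the mature neutrophil list, 7 of 8 of the promyelocyte list, 6 of 6 oxidase genes and 4 of 5 tertiary granule genes were called higher and none lower, with list medians of 9.27, 6.10, 6.73, 5.53 and 7.39 in log2 fold change against -0.53 over all genes. Of the 13 tested transcription factors 8 were called higher, among them Cebpe, Cebpa, Spi1 (PU.1) and Irf8, the last on the cells only. Beyond the neutrophil lists, 4 of 7 monocyte genes (Ccr2, F13a1, Ly6c2 and Ms4a6c) were also called higher. So were 3 of 5 progenitor genes (Cd34, Cd48 and Kit), 1 of 1 T-cell gene (Cd3d) and 2 of 20 cell-cycle genes. None of these lists had a lower call. Ccr2, F13a1, Ms4a6c, Cd34 and Cebpa had 0 UMIs in the secondary-leading members, and Cd34 had UMIs only in the 2 primary-leading cells. With secondary-leading members only, chosen after seeing the data, 545 of 609 retested calls were made again in the same direction and 12 changed sign. Of the 6 tested genes for marrow retention and release 5 were called higher, Csf3r, Cxcr2, Cxcr4, Itgb2 and Vcam1, as were Emb of the basal cell list and Ier2 of the immediate-early list. Lower calls fell on 5 of 8 erythroid genes, 4 of 5 genes of intermediate cells (Dct, Kcnj10, Met and Tyr), 2 of 7 of marginal cells (Lrp2 and Slc12a2) and 1 of 6 of the B lineage (Vpreb3).

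By the rule for named genes, the largest fold changes upward were in Itgb2l, Lcn2, Wfdc21, Ly6g, Pglyrp1, S100a8, S100a9, Chil3, Cd177 and Cebpe. Itgb2l, an integrin beta chain of neutrophils, had 31 UMIs in 63 member nuclei and 1 in 10638 others. Cebpe had 570 CPM in member nuclei against 0.236 in the others, and 240.0 against 1.28 in cell capture 3. Cd177, a neutrophil surface protein, was 470-fold higher in nuclei, and in cells it had 12 UMIs against 1 among all others. S100a8 was 447-fold higher in nuclei and 1211-fold in cells. The 2 primary-leading cells, with 0 UMIs of S100a8 and S100a9, held 38760 of the 66673 UMIs of the member cells, and in secondary-leading cells alone S100a8 was 2892-fold and S100a9 3015-fold higher than in the other barcodes. The other barcodes include the calprotectin-only ones, and a single such cell gave 262 of the 581 other S100a8 UMIs in cell capture 3. Without them, an alternative chosen after seeing the data, S100a8 was 1351-fold and 2205-fold higher in nuclei and cells and S100a9 1226-fold and 3563-fold, against 409-fold and 1262-fold with them, Cd177 was 939-fold higher in nuclei, and the calls were 519 higher and 132 lower. S100a8 had a UMI in 13.5% of other cells of capture 3 and in 12.7% of other nuclei, at median depths of 3880.5 and 1543 UMIs, so such a UMI alone does not mark a neutrophil. The genes lowest in members were Meis2, Prelp, Stau2, Lzts2 and Kcnn4, each with 0 UMIs in members. Among members of at least 20 UMIs and 1% of UMIs in the 6 genes, edgeR called 0 genes lower, with 1455 in either direction at an unadjusted p under 0.05. With all members DESeq2 called 269 lower. Meis2, a homeobox factor, was at least 11.0-fold and Prelp, a matrix proteoglycan, at least 3.41-fold lower in member nuclei.

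The nearest other myeloid class in these libraries was the macrophage, taken as barcodes with at least 10 UMIs and 0.5% of C1qa, C1qb and C1qc, of which there were 9 in cell capture 3 and 5 in the nuclei. Of 667 genes outside both rules, 100 (15%) were called higher and 77 (11.5%) lower in members, a split that became 45 and 127 without TMM scaling. Without the library block edgeR called 0 genes in either direction, with 112 at an unadjusted p under 0.05. The named genes higher in members were S100a8, S100a9, Wfdc21, Lcn2, Retnlg, Plac8, Ly6c2, Pglyrp1, Anxa1 and Ly6c1. Of the 5 tested monocyte genes only Ly6c2 was called higher, and Csf1r, Cx3cr1 and F13a1 were called lower. The list median was -1.90 in log2 fold change, against 0.49 over all genes. Lcn2 was at least 48.7-fold and 18.9-fold higher in cells and nuclei, with 0 UMIs in the macrophage barcodes of either. Anxa1, an annexin of tertiary granules and other cells, was at least 15.4-fold and 11.1-fold higher. Plac8 had 0 UMIs in the macrophage barcodes, and of its 176 UMIs in member cells 170 came from the 2 primary-leading ones. The 7 secondary-leading cells had 6 (215 CPM), and the 56 secondary-leading nuclei had 76 of 196 (433 CPM). The named genes lower in members were Pf4, Mrc1, Stab1, Apoe and Ms4a7. The lipid carrier Apoe had 6 UMIs in member cells against 1062 in macrophage barcodes and 20 against 177 in nuclei, 315-fold and 201-fold lower by CPM, and the mannose receptor Mrc1 had 0 UMIs in members of both libraries.

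Markers of other blood cells differed in how far they were present in the members. All 8 genes for eosinophils, basophils and mast cells and all 6 for dendritic cells had 0 UMIs in the members of both libraries, save 2 UMIs of the basophil protease Mcpt8 in 1 primary-leading nucleus. Macrophage genes were detected at 27 UMIs in the member cells of capture 3 (405 CPM, 7 of 8 genes, most of all C1qa) and 14 in member nuclei (66.5 CPM, 5 of 8 genes, most of all C1qb and C1qc, with 4 UMIs each), against 79.9 and 29.9 CPM in other barcodes, with Mrc1 at 0 in both. Their part in the results was not tested. B-lineage genes had 0 UMIs in the cells and 80.7 CPM in member nuclei, most of it Ebf1, against 620 CPM in other nuclei, with Vpreb1, Vpreb3 and Pax5 at 0. The erythroid list had 1 UMI in member cells and 20 UMIs in member nuclei, against 1137 and 777 CPM in other barcodes. Monocyte genes other than Ly6c2 were near 0 in the secondary-leading members, where Ccr2, F13a1 and Ms4a6c had 0 UMIs in cells and nuclei. Cd3d, a chain of the T-cell receptor complex, had 251 CPM in secondary-leading cells and 251 CPM in secondary-leading nuclei, in 2 of 7 and 27 of 56 members, with Cd3e at 0 in both and 1 UMI of Cd3g in the nuclei.

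RNA of SV cells in the members was low and uneven. Dct stood at 215 CPM in secondary-leading cells and 963 in secondary-leading nuclei, against 7506 and 6970 CPM in other barcodes. The median secondary-leading nucleus had 1 Dct UMI, while the highest held 29, 25 and 24 and carried much of the summed level. The nucleus with 29 had 28.1% mitochondrial UMIs. A secondary-leading nucleus of 1374 UMIs stood apart, with 31.0% mitochondrial UMIs, 24 UMIs of Dct and 0.509% calprotectin beside 71 UMIs of the 6 rule genes. In all, 6 of the 63 member nuclei, all secondary-leading, and no member cells were among the barcodes with the highest doublet scores. The fixed marking rate took 916 of 10701 nuclei (8.56%), so the count in members was near the share over all nuclei.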

How the data were processed

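Libraries were made with 10x Genomics Chromium 3' chemistry. The authors deposited raw UMI counts of each capture, produced with Cell Ranger (version 2.0.0 and the mm10 build by the submitters' processing notes). Counts were read as deposited, and barcodes under 200 genes were left out. Members, classes and gene lists were chosen with earlier results of these data known. Doublets were scored with Scrublet in scanpy 1.11.5 and marked at 0.8% of barcodes per 1000 barcodes. They were not removed.

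UMIs were summed per library and class of at least 3 barcodes, matched by gene identifier over 27873 genes. The planned fit on the 3 cell captures could not be run, since 1 capture alone had 3 members. A fit over all 4 libraries was used in its place, which comes to cell capture 3 and the nuclei with the library as a block and 1 residual degree of freedom. Both classes of a library come from 1 suspension, which pairs them. The fit used edgeR 4.0.16 with TMM, filterByExpr and a robust quasi-likelihood test, with Benjamini-Hochberg adjustment. It was also run on simulated counts in which both libraries shared 1 expression profile and the same fold changes. Such counts hold no difference between cells and nuclei, so that run does not show how the fit handles one. Libraries were not independent mice. With the library block, the residual holds only how a class difference varied between 1 cell and 1 nucleus library, with variance estimates shared over genes. The p-values therefore do not measure a spread between replicate captures or mice. Intervals are exact Poisson or exact binomial at 95% (scipy 1.17.1). For a count of 0 a floor of 3 UMIs was set, which is not the exact limit of such an interval. The intervals and the floor cover counting error only.

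Beyond the lists, the genes named were the 10 with the largest positive and 5 with the largest negative log2 fold change among called genes of the same direction in both libraries, with at least 20 UMIs in members or, for lower genes against other barcodes, 1000 UMIs in the others (20 in macrophage barcodes), predicted and ribosomal protein genes left out. The stages were fitted the same way on sums of at least 1 barcode, a choice made after the data were seen. For the stages, the 10 largest ratios each way with 1 UMI added per class were named. Some items that these rules name are not reported here, and proteins were not printed.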

Additional observations from a re-analysis of the deposited data

How the results depend on the processing

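The member count ran from 64 to 79 over all other limits on UMIs, percent, hemoglobin, genes, doublets and depth, and a mitochondrial limit of 10% chosen after seeing the data, and the primary-leading share from 9.23% to 13.4%, against 73 and 12.3%. In cell capture 3 in place of the nuclei, 124 of 338 genes (36.69%) were at least 4-fold higher in primary-leading and 33 (9.76%) in secondary-leading members, against 193 and 102 of 1186. Averaging shares over members in place of summed UMIs raised Elane in primary-leading nuclei to 21670 CPM and Retnlg in secondary-leading nuclei to 12516 CPM. Against other barcodes, genes lower in members numbered 269 with DESeq2, 472 with DESeq2 size factors, 558 without TMM and 325 without doublets. With members of at least 20 UMIs and 1% edgeR called 0 lower and 393 higher, with 1455 at an unadjusted p under 0.05. Chosen after seeing the data, sums of at least 1 barcode gave 2632 lower, and secondary-leading members alone gave 1323. With no replicate block, that is without the pairing of classes within a library, 341 were higher and 107 lower. Against macrophage-marker barcodes the counts higher and lower were 12 and 18 with DESeq2, 45 and 127 without TMM, 10 and 1 with no filter on low counts, and 0 and 0 with no replicate block. Sums of at least 1 barcode gave 49 higher. Apart from the scaling and sample choices named, the cause of these changes was not tested. Leaving out either library left no residual degrees of freedom and gave no value. The stages were fitted only with sums of at least 1 barcode, chosen after seeing the data, where 135 genes were higher and 112 lower in primary-leading members. There 32 were lower without TMM, and 0 and 0 were called with no replicate block. Sums of at least 1 barcode against other and macrophage-marker barcodes also held the single member of cell capture 2, for 3 libraries. The other fits rest on 2 libraries, 9 members of one and 63 of the other, and lower calls in members depend on scaling and on the limits for members.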
